A study of Mus musculus with 6 samples.

Results

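The genes described here encode proteasome subunits, some assembly chaperones named with them, and the p97 machinery that delivers ubiquitylated proteins to the proteasome. They were taken by name: every gene whose symbol is Psma, Psmb, Psmc or Psmd followed by a number, except the immunoproteasome genes Psmb8, Psmb9 and Psmb10, together with Vcp, Nploc4, Ubxn4, Ufd1, Nfe2l1 and Ngly1. All 42 genes of that description in the RefSeq gene table had a probe set of their own, out of 19936 genes measured. They comprise 8 alpha and 8 beta subunits of the 20S core, 6 ATPase and 14 non-ATPase genes of the 19S cap, 4 genes of the p97 machinery, and the transcription factor gene Nfe2l1 with Ngly1. The core genes include Psma8 and Psmb11, subunits of other tissues. The non-ATPase genes include assembly chaperone genes such as Psmd5 and Psmd10.

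Expression was measured on Affymetrix arrays in colon epithelium from 8-week-old male mice, with 3 arrays from wild type C57BL/6J mice and 3 from mice lacking Sel1l in intestinal epithelial cells (Sel1L-delta-IEC, on the same background). In the knockout, a Cre transgene excised exon 6 of Sel1l, set between loxP sites, under the villin-1 promoter, which is active in epithelial cells and leaves other cells of the preparation with an intact gene. A β-actin-driven FLPe deleter strain had removed the lacZ-neo cassette of the original allele. Whether the wild type mice carried the floxed allele or the transgene, and whether each array stands for a separate mouse, is not given in the sources used here, so p-values reflect only how these arrays spread, which may be technical. Values are log2 RMA levels, changes are knockout minus wild type, errors of a change are moderated standard errors (SE), and a gene was called when limma's Benjamini-Hochberg adjusted p over all genes was under 0.05.

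The proteasome degrades proteins marked with ubiquitin. Its 20S core is a stack of alpha and beta rings, in which the beta subunits encoded by Psmb5, Psmb6 and Psmb7 carry the proteolytic sites, and its 19S cap recognises, unfolds and feeds in the substrate. In endoplasmic reticulum (ER)-associated degradation, the SEL1L-HRD1 complex passes misfolded proteins across the ER membrane, where the ATPase p97, encoded by Vcp, pulls them out with its cofactors UFD1 and NPL4. When proteasome activity is short, the transcription factor NRF1, encoded by Nfe2l1, is itself extracted from the ER by p97, stripped of its glycans by the enzyme encoded by Ngly1, and raises the proteasome genes through antioxidant response elements. Sel1l and the HRD1 gene Syvn1 also act in the turnover of NRF1.

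Sel1l read 9.45, 9.67 and 9.54 on the wild type arrays and 8.70, 9.06 and 8.66 on the knockout arrays. All knockout values were below all wild type values, with a change of -0.74 ± 0.11 (SE, limma adjusted p = 0.018) and an exact two-sided permutation p of 0.1, the smallest that 3 arrays against 3 can give. The call was lost without moderation (adjusted p = 0.20) and without wild type array 1 or 2 or knockout array 1 or 3 (adjusted p from 0.055 to 0.087). Array medians lay between 6.32 and 6.36, and correlations between arrays (over genes, which are no independent replicates) lay between 0.993 and 0.997. All 11 colon epithelium markers lay above the array median, against 2 of 5 for T cells, 1 of 4 for B and plasma cells, 1 of 5 for macrophages and dendritic cells, 3 of 5 for fibroblasts, 1 of 4 for smooth muscle, 0 of 3 for endothelium and 1 of 4 for neutrophils. None of these markers was called except Ly6g, which was lower and belongs to a family of similar genes. Among the 11 epithelial markers 3 were lower (Cdh1, Epcam and Slc26a3) and 1 higher (Cdx2) at an unadjusted p under 0.05. Of all genes, 5.62% were lower and 7.72% higher at that threshold.

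No proteasome or p97 gene was called. Limma called 0 of the 42 at the adjusted threshold, against 1.63% of all genes (0.918% higher and 0.712% lower in the knockout), and the smallest adjusted p was 0.25, for Vcp. At an unadjusted p under 0.05 there were 4 of 42, all higher, which is 9.52% against 7.72% of all genes higher, 5.62% lower and 13.3% in either direction. The median change of the 42 genes was 0.0097, with 23 positive and 19 negative, beside a median of 0.019 over all genes. Single changes ran from -0.13 for Psma1 to 0.22 for Ubxn4. An ordinary linear model without moderation also called 0 of the 42, with 7 at an unadjusted p under 0.05 (16.7%, against 11.998% of all genes), and called 4 of all genes. With an intensity trend in the variance prior, 10 of the 42 had an unadjusted p under 0.05 (23.8%, against 14.2% of all genes), 9 of them higher and 1 lower. Without moderation, 6 were higher and 1 lower. The share in either direction thus lay below that of all genes in the main fit (9.52% against 13.3%) and above it in both of these alternatives.

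**Figure D1:**
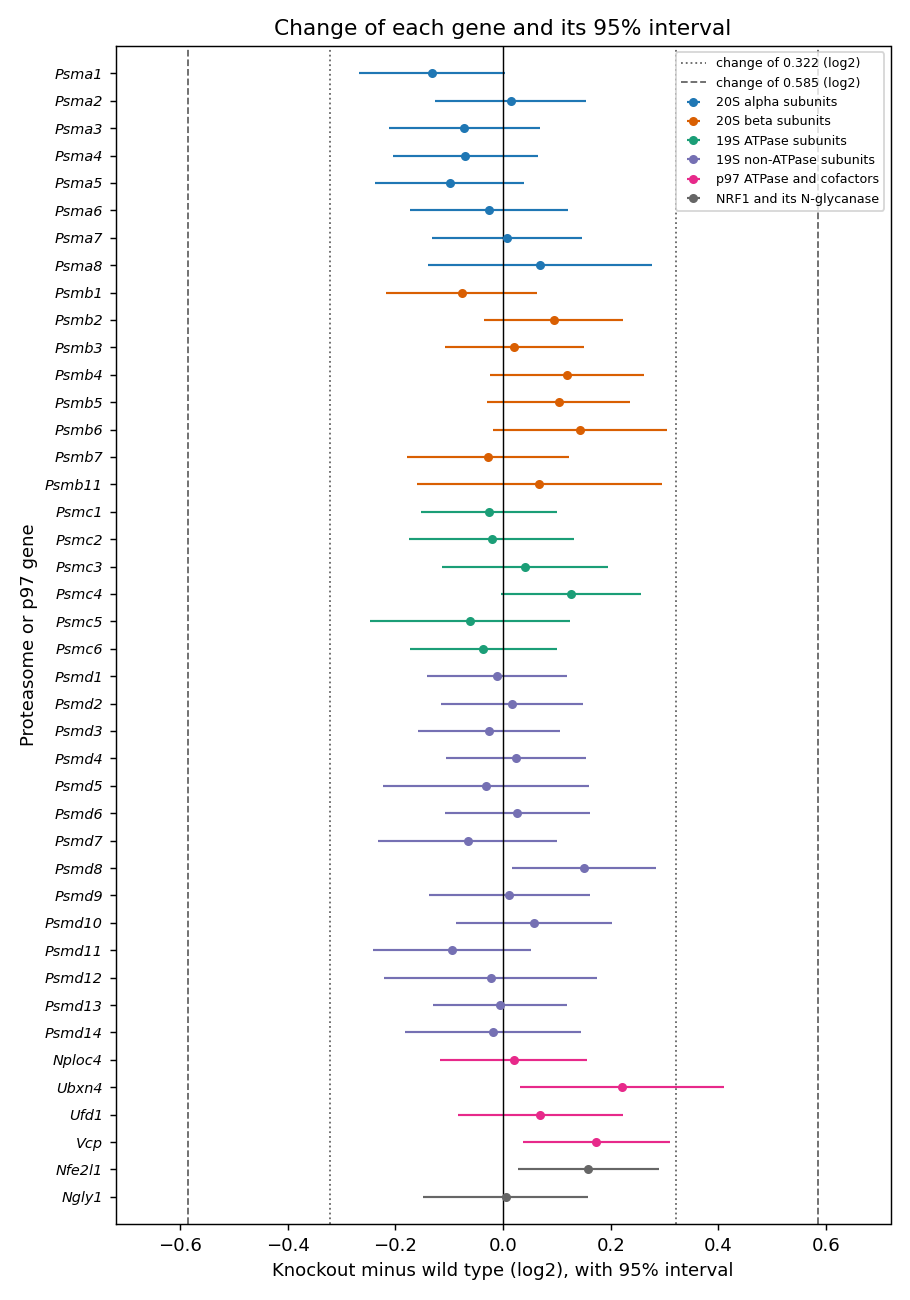
Change of each of the 42 genes between knockout and wild type (log2, points) with its 95% interval from the limma fit (bars), coloured by role, with 3 arrays in each group; dotted and dashed lines mark changes of 0.322 and 0.585 (1.5-fold) in either direction. All 42 intervals lie inside the dashed lines, and that of Ubxn4 crosses the upper dotted line.

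The fit set bounds on each change. The 95% interval of the change lay wholly within 1.5-fold in either direction for all 42 genes, against 96.5% of all genes, and within 0.322 on the log2 scale for 41 of 42, against 72.1% of all genes and 73.9% of the brighter 50% of genes. The exception was Ubxn4, whose interval ran from 0.032 to 0.41. The bounds reach from -0.27, the lower limit for Psma1, to that upper limit. The median SE was 0.061 for the 42 genes, 0.070 for the brighter 50% of genes and 0.075 for all, so the narrow intervals come with a small spread between arrays as well as with small changes. These are intervals for each gene alone, and 40 of the 42 genes lie in the brighter 50%.

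**Figure D2:**
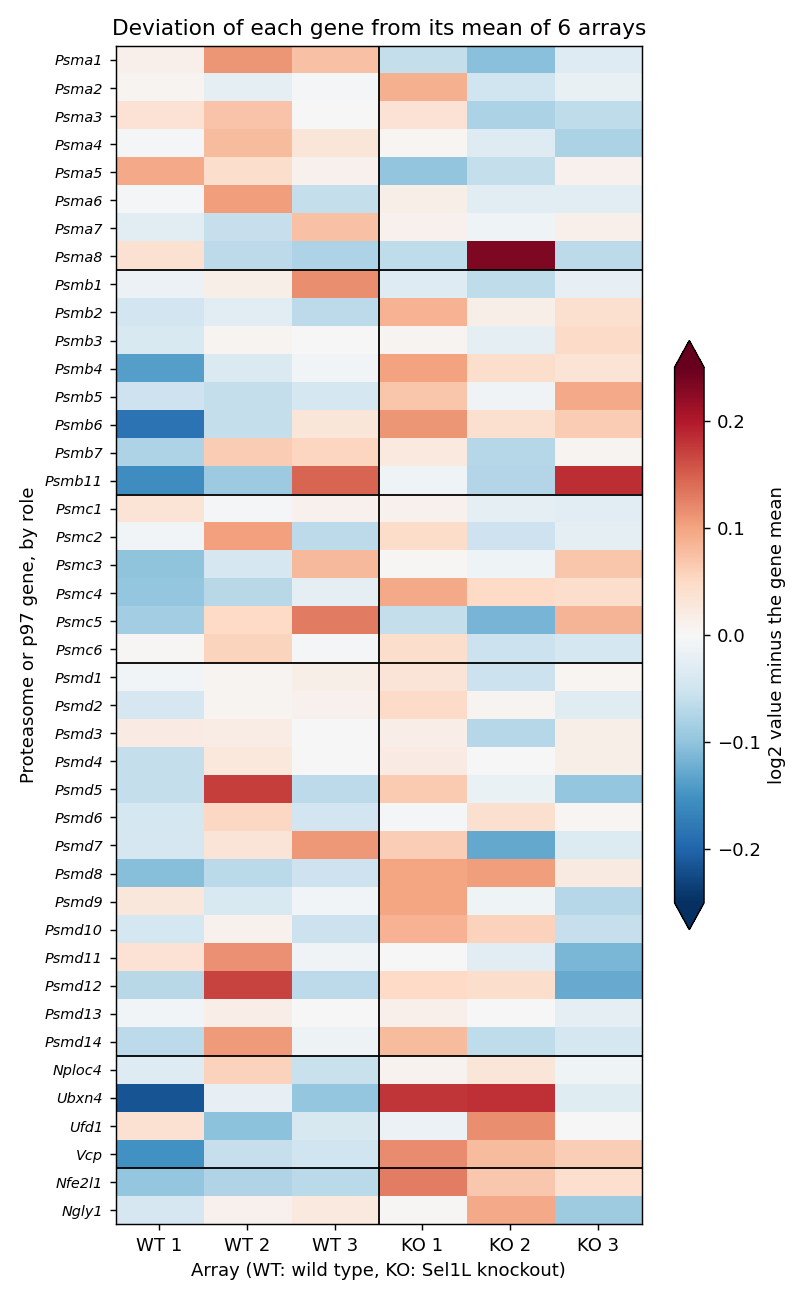
Deviation of each of the 42 genes from its mean of 6 arrays (log2, colour), with wild type (WT) and knockout (KO) arrays 1 to 3 in columns and genes in rows by role. Most cells lie within 0.1 of the gene mean, and the median deviations of the 42 genes on the WT arrays (-0.042, 0.011 and -0.0038) overlap those on the KO arrays (0.028, -0.011 and -0.015).

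The median deviation of the 42 genes from their own means was -0.042, 0.011 and -0.0038 on wild type arrays 1, 2 and 3 and 0.028, -0.011 and -0.015 on the knockout arrays. The groups overlapped, with the lowest value on wild type array 1 and the highest on knockout array 1. Within single genes, every knockout array lay above every wild type array in 8 of 42 (against 11.4% of all genes), namely Psmb2, Psmb4, Psmb5, Psmb6, Psmc4, Psmd8, Vcp and Nfe2l1, and below in 3 (7.14%, against 7.98% of all genes), Psma1, Psma5 and Psmb1. That separation used no estimate of the spread and is no test.

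The p97 machinery had the largest median change of the 6 role groups, 0.12 over its 4 genes, all of them positive and none called. The group median stayed between 0.10 and 0.14 with each array left out and under each scaling. Vcp, which encodes the p97 ATPase, read 9.91, 10.01 and 10.02 in wild type and 10.18, 10.15 and 10.13 in the knockout. The groups did not overlap, yet the change of 0.17 ± 0.060 was not called (limma adjusted p = 0.25, unadjusted p = 0.019), and it corresponds to at most 0.31 at the upper limit of its interval. With an array left out the change lay between 0.14 and 0.19 and the adjusted p between 0.29 and 0.51. In bulk tissue a change in the share of cells of a type and a change in RNA per cell cannot be told apart, here and in all results that follow.

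Ubxn4 encodes erasin, an ER membrane protein that binds p97. Its values were 8.67, 8.86 and 8.79 in wild type and 9.06, 9.07 and 8.85 in the knockout. Knockout arrays 1 and 2 lay above all wild type arrays, whereas knockout array 3 lay just below wild type array 2. The change of 0.22 ± 0.083 was not called (limma adjusted p = 0.29). Without knockout array 3 it was 0.29, and without wild type array 1 it was 0.17, neither of them called.

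Ufd1 and Nploc4 encode UFD1 and NPL4, which form the adaptor by which p97 grips ubiquitin chains. Ufd1 read 8.97, 8.83 and 8.89 in wild type and 8.91, 9.04 and 8.93 in the knockout, and the 2 groups overlapped (0.069 ± 0.067, limma adjusted p = 0.73). Nploc4 read 10.25, 10.34 and 10.23 in wild type and 10.30, 10.32 and 10.27 in the knockout. All 3 knockout values of Nploc4 lay within the wild type range, with a change of 0.020 ± 0.059 (limma adjusted p = 0.93) that turned to -0.0030 without wild type array 3. The intervals of both changes lay within 0.322 on the log2 scale.

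Nfe2l1, the NRF1 gene, read 9.71, 9.74 and 9.74 in wild type and 9.94, 9.88 and 9.85 in the knockout. Its knockout arrays were all higher and its wild type arrays close together, and the change of 0.16 ± 0.057 was not called (limma adjusted p = 0.27, unadjusted p = 0.023). The array reads the transcript, while NRF1 is controlled largely through its processing and turnover as a protein, which was not measured. Ngly1, which encodes the cytosolic N-glycanase, read 9.15, 9.20 and 9.21 in wild type and 9.19, 9.28 and 9.10 in the knockout. The knockout arrays spanned the wild type range on both sides, and the change was 0.0050 ± 0.067 (limma adjusted p = 0.98), with a sign that flipped under quantile normalization and median centring.

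**Figure D3:**
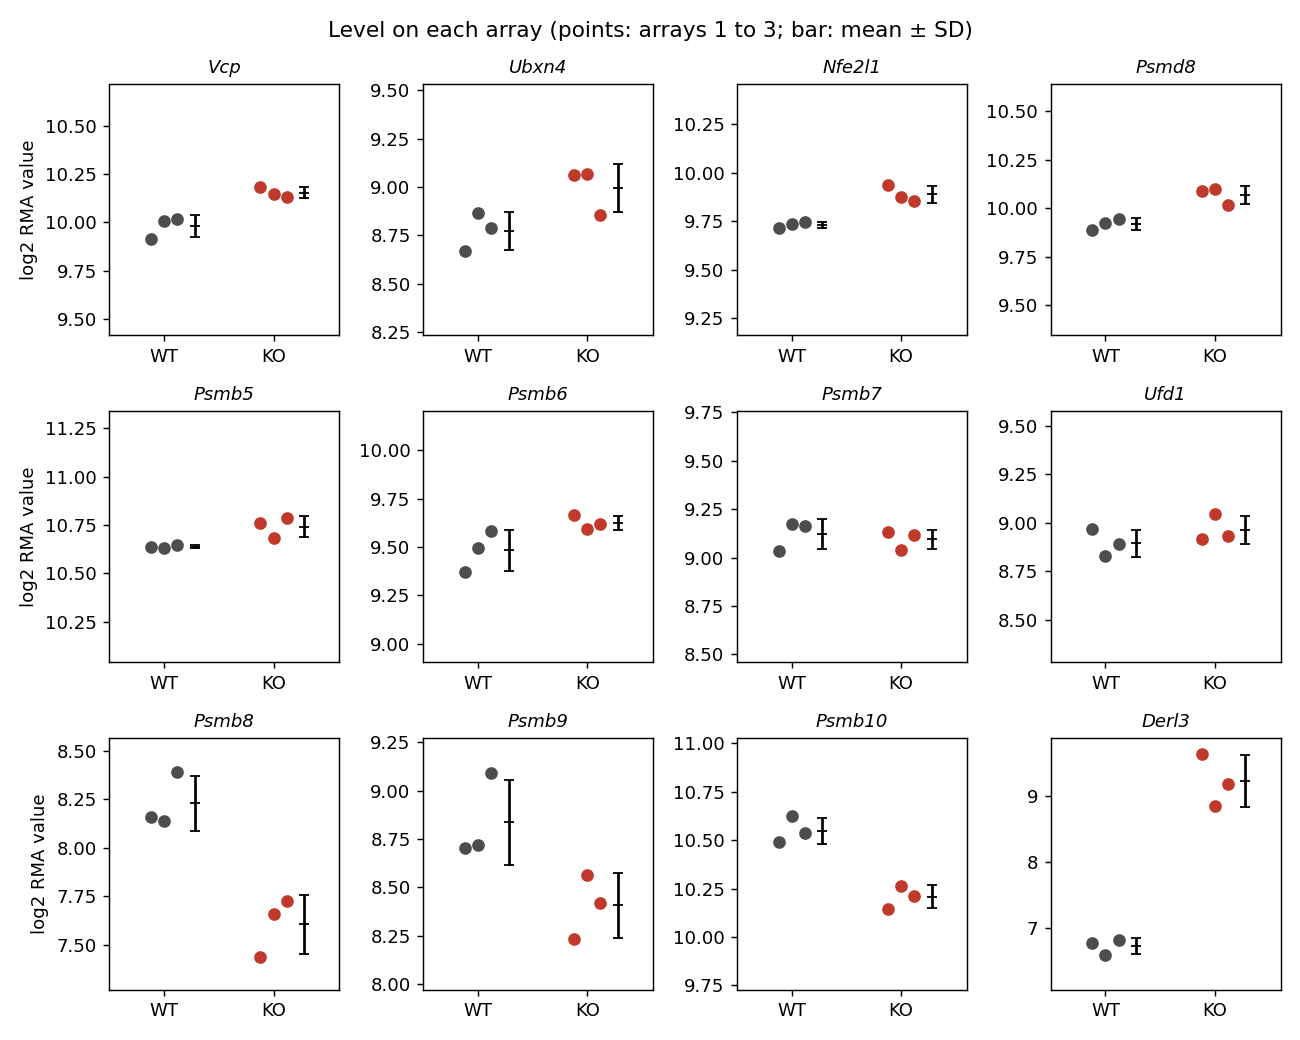
Levels (log2 RMA value) of 12 genes on wild type (WT) and knockout (KO) arrays 1 to 3 (points), with mean ± SD (bars, n = 3 each); axis heights are equal in log2 units except for Derl3, whose axis is longer. Vcp, Nfe2l1, Psmd8, Psmb5 and Psmb6 sit slightly higher in KO without being called, Psmb8 and Psmb10 fell, and Derl3 rose by 2.49.

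Promoter windows from RefSeq (build GRCm38.p6, 250 bases before to 50 after a gene's start) held 35 of the 42 genes. Psma8, Psmb1, Psmb2, Psmb7, Psmc3, Psmd3 and Psmd7 had no window there. The windows were searched on both strands for the core of the antioxidant response element through which NRF1 acts, TGACNNNGC. It occurred in 7 of the 35 genes, against 14.0% of the 27025 genes of the table. These were Psmb5, Psmb6, Psmc6, Psmd9, Psmd12, Vcp and Ubxn4. The ER stress response element, a CCAAT box and a CCACG box a fixed distance apart, occurred in 0 of the 35 and in 0.137% of all genes. CCAAT alone occurred in 14 of the 35 (40.0%), against 41.1% of all genes. Another motif, TGACGTG, the core of the element bound by XBP1 and ATF6, was added after the sequences had been seen. It occurred in 3 of the 35 (8.57%), against 2.22% of all genes, namely Vcp, Nfe2l1 and Psma1. It overlaps the antioxidant core where the letters continue to GC, as they do in Vcp. A match is a description of letters and not a measured binding site.

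The Vcp window is shown because it belongs to the gene with the smallest p and holds 3 of the 4 motifs searched. It is given for the 250 bases before the start, 5′ to 3′ on the minus strand, chr4:43000508-43000757, with capitals for CCAAT on either strand (4 times) and for the antioxidant core at -114 to -106, counted so that -1 is the base before the start. One CCAAT runs directly into that core. TGACGTG, the motif added later, lies wholly within the core, so the count of motifs includes the same letters more than once.
Vcp: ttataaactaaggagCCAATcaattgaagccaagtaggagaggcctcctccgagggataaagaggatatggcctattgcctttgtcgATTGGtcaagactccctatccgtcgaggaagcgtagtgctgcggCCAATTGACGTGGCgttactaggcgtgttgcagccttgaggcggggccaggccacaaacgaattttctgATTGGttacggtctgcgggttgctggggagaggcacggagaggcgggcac

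The next stretches compare the antioxidant core (capitals) of Ubxn4 and of the core subunit genes Psmb5 and Psmb6, which were higher by 0.22, 0.10 and 0.14 without being called, with that of Psmd9, at 0.012. Psmc6 (-0.036) and Psmd12 (-0.023), which also hold the antioxidant core and had negative changes, are not shown. The printed stretches are read 5′ to 3′ on the gene's strand, at chr1:128244089-128244117 (plus), chr14:54618024-54618052 (minus), chr11:70525338-70525366 (plus) and chr5:123228149-123228177 (plus). In Ubxn4 the core is read from the other strand.
Ubxn4: ctcactgcagGCGACGTCAacgtgccgta
Psmb5: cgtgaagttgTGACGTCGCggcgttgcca
Psmb6: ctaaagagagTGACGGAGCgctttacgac
Psmd9: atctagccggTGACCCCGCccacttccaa

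The element of Nfe2l1 and Psma1 is shown because these genes share the 7 letters of the XBP1 and ATF6 core with Vcp and differ in the sign of their change. The stretches lie at chr11:96830109-96830135 and chr7:114276260-114276286, both on the minus strand.
Nfe2l1: gacttctctcCACGTCAgtctcgggag
Psma1: actctgggcgTGACGTGaagccacgcc

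Set side by side, the 7 genes with the antioxidant core had a median change of 0.10, from -0.036 to 0.22, with 5 positive. The 28 genes with a window but without the core had a median of 0.0063, from -0.13 to 0.16, with 15 positive. Each set held 2 genes at an unadjusted p under 0.05, 2 of 7 and 2 of 28, against 13.3% of all genes. These were Vcp and Ubxn4 in the first set and Nfe2l1 and Psmd8 in the other. The ranges overlapped, no gene of either set was called, and the difference was not tested.

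Beta subunits of the 20S core had a median change of 0.081, with 6 of 8 positive and none called. Psmb6, which encodes the beta 1 subunit with the caspase-like site, read 9.37, 9.49 and 9.58 in wild type and 9.66, 9.59 and 9.62 in the knockout, a change of 0.14 ± 0.071 (limma adjusted p = 0.44). Psmb4, which encodes the structural subunit beta 7, read 10.78, 10.88 and 10.91 in wild type and 11.02, 10.96 and 10.95 in the knockout. Its change was 0.12 ± 0.062 (limma adjusted p = 0.47), and in both genes the knockout arrays lay just above the highest wild type array.

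Psmb5, which encodes beta 5 with the chymotrypsin-like site, read 10.64, 10.63 and 10.65 in wild type and 10.76, 10.68 and 10.78 in the knockout, a change of 0.10 ± 0.058 (limma adjusted p = 0.51). Its wild type arrays were close together, with an SD of 0.0080, and the knockout SD was 0.054. Psmb7, which encodes beta 2 with the trypsin-like site, read 9.03, 9.17 and 9.16 in wild type and 9.13, 9.04 and 9.11 in the knockout. Those groups overlapped throughout, with a change of -0.028 ± 0.065 (limma adjusted p = 0.91). Psmb1 was the other beta gene with a negative change, at -0.077, and Psmb2 and Psmb3 differed by 0.094 and 0.021. The median of the group was lowest, at 0.042, without knockout array 3 and highest, at 0.12, without knockout array 2.

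Alpha subunits, which form the outer rings and the gate of the core, had a median change of -0.048, with 5 of 8 negative and none called. The median was negative with each array left out and under each scaling. Psma1 read 10.21, 10.30 and 10.27 in wild type and 10.13, 10.09 and 10.16 in the knockout. Its knockout arrays were all lower, and the change of -0.13 ± 0.059 had limma's adjusted p = 0.39. Psma5 read 8.30, 8.25 and 8.21 in wild type and 8.10, 8.14 and 8.21 in the knockout, where the highest knockout array was level with the lowest wild type array (-0.099 ± 0.061, limma adjusted p = 0.55). Psma4 read 9.39, 9.47 and 9.42 in wild type and 9.40, 9.36 and 9.31 in the knockout and differed by -0.070 ± 0.059 (limma adjusted p = 0.68). The remaining alpha genes ran from -0.072 for Psma3 to 0.069 for Psma8. The alpha and beta medians thus had opposite signs, and the difference between the groups of genes was not tested. Each median includes a dim gene described below as a subunit of another tissue, Psma8 for alpha and Psmb11 for beta. Without the dimmest 50% of genes, which leaves both out, the medians were -0.070 and 0.094.

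ATPase subunits of the 19S cap, which form the ring that unfolds substrates, had a median change of -0.024, with 2 of 6 positive. Psmc4 read 9.32, 9.34 and 9.39 in wild type and 9.51, 9.46 and 9.46 in the knockout. Its groups did not overlap, and the change of 0.13 ± 0.057 was not called (limma adjusted p = 0.39). Psmc5 read 7.82, 7.95 and 8.03 in wild type and 7.84, 7.79 and 7.99 in the knockout, and Psmc6 8.82, 8.87 and 8.81 against 8.86, 8.76 and 8.77. Both overlapped between the groups and differed by -0.061 ± 0.081 and -0.036 ± 0.060 (limma adjusted p = 0.81 and 0.85). Psmc1, Psmc2 and Psmc3 ran from -0.026 to 0.041. The group median turned to 0.0039 without wild type array 2.

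Non-ATPase genes of the cap had a median change of -0.0081, with 6 of 14 positive. Their subunits bind and trim ubiquitin chains and hold the cap together, and the group also holds assembly chaperone genes. Psmd8, which encodes the lid subunit RPN12, read 9.89, 9.93 and 9.94 in wild type and 10.09, 10.10 and 10.02 in the knockout. Each knockout array was higher, and the change of 0.15 ± 0.058 was not called (limma adjusted p = 0.31, unadjusted p = 0.031). Psmd11, which encodes the lid subunit RPN6, read 9.05, 9.13 and 9.005 in wild type and 9.01, 8.99 and 8.90 in the knockout. Its groups overlapped by 1 knockout array, with a change of -0.094 ± 0.064 (limma adjusted p = 0.60).

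Psmd7, a lid subunit gene, read 9.11, 9.18 and 9.26 in wild type and 9.21, 9.02 and 9.12 in the knockout (-0.066 ± 0.073, limma adjusted p = 0.76). Psmd10, which encodes the assembly chaperone gankyrin, read 8.97, 9.02 and 8.96 in wild type and 9.10, 9.07 and 8.95 in the knockout (0.058 ± 0.064, limma adjusted p = 0.76). Psmd3 read 9.07, 9.07 and 9.05 in wild type and 9.07, 8.98 and 9.06 in the knockout (-0.027 ± 0.058, limma adjusted p = 0.90), and its change was 0.0021 without knockout array 2. In these 3 genes the groups overlapped.

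The other 9 cap genes of this kind lay between -0.032 for Psmd5, an assembly chaperone gene, and 0.027 for Psmd6. They included the ubiquitin receptor gene Psmd4 (0.024), the large scaffold genes Psmd1 (-0.010) and Psmd2 (0.017), and Psmd14 (-0.018), which encodes the deubiquitylase RPN11 that removes the chain before the substrate enters. The median of the 14 genes turned positive when array 2 of the wild type (0.027) or array 2 or 3 of the knockout (0.011 and 0.016) was left out.

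Of the 42 genes, 40 had a mean above the array median, and the exceptions were Psma8 and Psmb11. Psma8 encodes an alpha subunit of the testis and Psmb11 a beta subunit of the thymic epithelium. Psma8 read 4.46, 4.35 and 4.34 in wild type and 4.36, 4.65 and 4.35 in the knockout, with the single high value on knockout array 2. Psmb11 read 5.52, 5.58 and 5.82 in wild type and 5.66, 5.60 and 5.86 in the knockout, and array 3 was the highest of both genotypes. These are probe set readings near the dim end, and no level of detection was set. Psmb11 is the next protein-coding gene beside Psmb5 in the RefSeq table, and no other pair of the 42 genes were such neighbours.

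For 5 genes the array had more than 1 probe set, and a probe set can also read near-identical copies of a gene, which were not mapped here. The probe sets of a gene had the same sign in each case. Psma3 gave -0.072, -0.078 and -0.095 with its 3 probe sets, Psma5 -0.099 and -0.047, Psmb3 0.021 and 0.049, Psmc1 -0.026 and -0.054, and Psmd2 0.017 and 0.011. None was called in a fit of all probe sets.

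Of the 3 immunoproteasome subunit genes 2 were called lower, against 0.712% of all genes, while none of the constitutive subunit genes they stand in for was called. In this form of the core, induced by interferon, PSMB8, PSMB9 and PSMB10 take the place of the beta 5, beta 1 and beta 2 subunits. Psmb8 read 8.16, 8.14 and 8.39 in wild type and 7.43, 7.66 and 7.72 in the knockout and fell by 0.63 ± 0.099 on the log2 scale (limma adjusted p = 0.022). Psmb10 read 10.49, 10.62 and 10.54 in wild type and 10.14, 10.26 and 10.21 in the knockout and fell by 0.34 ± 0.065 on the log2 scale (limma adjusted p = 0.044). Both were lower on every knockout array. The call of Psmb8 ended when either of arrays 1 and 2 of either genotype was left out (adjusted p up to 0.079), and that of Psmb10 with each array left out (adjusted p up to 0.16) and under the replicate block (adjusted p = 0.071). Both calls also ended without moderation, at adjusted p = 0.20 for Psmb8 and 0.16 for Psmb10. Psmb9 read 8.70, 8.72 and 9.09 in wild type and 8.23, 8.57 and 8.42 in the knockout and was not called (-0.43 ± 0.12, limma adjusted p = 0.16).

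Within each array, the log2 value of Psmb8 minus that of Psmb5 was -2.48, -2.49 and -2.25 in wild type and -3.32, -3.03 and -3.06 in the knockout, a shift of -0.73. For Psmb9 minus Psmb6 the shift was -0.57, from -0.65 ± 0.14 in wild type to -1.22 ± 0.20 (SD, n = 3 each), and for Psmb10 minus Psmb7 it was -0.31, from 1.43 ± 0.047 to 1.11 ± 0.11. The groups did not overlap in any of the 3 pairs. The exact two-sided permutation p was 0.1 in each, the smallest the design allows, and 0.1 after adjustment over the 3 pairs. The pairs were chosen with the fall of the immunoproteasome genes known, so the shifts only describe the readings of these arrays. Such a difference between probe sets gives no ratio of molecules. The sum of the log2 values of the 4 measured B and plasma cell markers was lower in the knockout (21.7, 21.9 and 21.8, against 22.3, 22.0 and 22.9). Such a sum weighs dim and bright genes alike and is no total signal. Only Sdc1, which epithelium also expresses, lay above the array median, and none of the 4 had an unadjusted p under 0.05. The corresponding sums of the T cell, macrophage and dendritic cell, fibroblast, smooth muscle, endothelium and neutrophil markers overlapped between the groups. The sum of the log2 values of the 11 epithelial markers overlapped between the groups, from 132.8 to 134.2 in wild type and from 132.6 to 133.6 in the knockout. Within that list the adhesion genes Cdh1 and Epcam and the chloride exchanger gene Slc26a3 were lower on each knockout array (-0.23, -0.23 and -0.36, limma adjusted p from 0.12 to 0.16), as was the mucin gene Muc2 (-0.040), whereas the transcription factor gene Cdx2 was higher on each (0.28, limma adjusted p = 0.20). Of all genes, 7.98% were lower and 11.4% higher on each knockout array. The part of these markers in the values of the immunoproteasome genes was not tested.

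**Figure D4:**
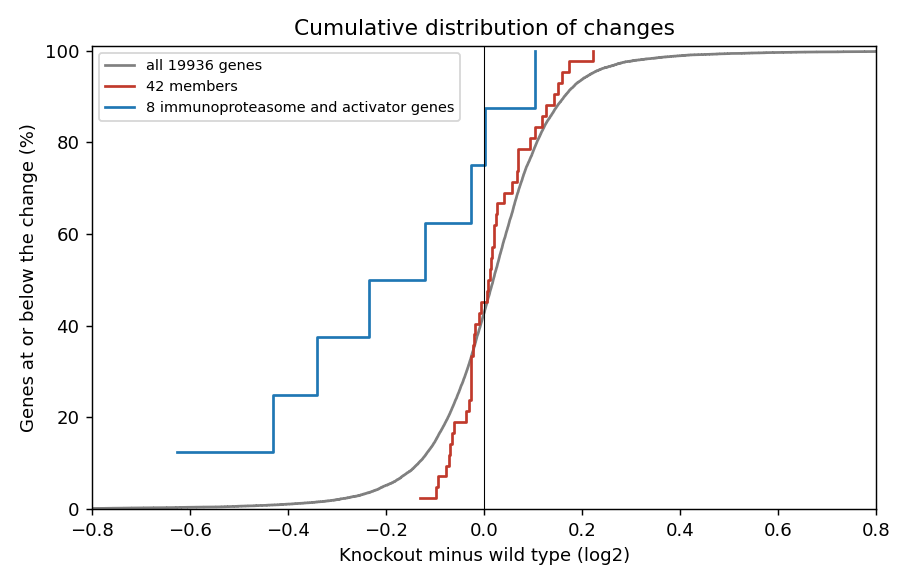
Cumulative share of genes (%) against their change between knockout and wild type (log2) for all 19936 genes, the 42 proteasome and p97 genes and the 8 immunoproteasome and activator genes. The curve of the 42 genes is steep around 0 (median 0.0097), while the 8 genes lie mostly to the left (median -0.18).

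Of 8 immunoproteasome and activator genes, 2 were called lower and none higher (against 0.712% and 0.918% of all genes), with a median change of -0.18 beside 0.019 over all genes. At an unadjusted p under 0.05, 4 were lower and none higher, against 5.62% and 7.72% of all genes. On every knockout array 4 were lower and 1 higher, against 7.98% and 11.4% of all genes. The interferon-induced activator genes Psme1 and Psme2 differed by -0.12 and -0.23, and Psme3, Psme4 and the inhibitor gene Psmf1 by -0.027, 0.10 and 0.00081, none of them called. Psme2 was lower on each knockout array (limma unadjusted p = 0.0046). Among factors that assemble or attend the proteasome, 12 of 14 were measured and the median was -0.019. None was called and none had an unadjusted p under 0.05, against 1.63% and 13.3% of all genes. The assembly chaperone gene Psmg1 read 7.94, 7.97 and 8.06 in wild type and 7.96, 7.78 and 7.83 in the knockout (-0.13 ± 0.069, limma adjusted p = 0.46). Txnl1, which encodes a thioredoxin-like protein of the cap, differed by 0.12 ± 0.073 (limma adjusted p = 0.56), and Pomp, the maturation factor gene that acts in assembly of the core, by 0.035.

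Among other p97 cofactors, 25 of 27 were measured, with 1 called higher, none lower (against 0.918% and 0.712% of all genes), and a median of 0.032. The called gene was Derl3, which encodes an ER membrane Derlin. It read 6.78, 6.59 and 6.83 in wild type and 9.63, 8.85 and 9.18 in the knockout and rose by 2.49 ± 0.17 (limma adjusted p = 0.0013), a call lost without moderation (adjusted p = 0.096). Derl1, its paralog, read 9.72, 9.80 and 9.79 in wild type and 10.06, 9.98 and 10.05 in the knockout. It was higher on each knockout array and not called at 0.27 ± 0.059 (limma adjusted p = 0.079). It was called where the dimmest 25% or 50% of genes were left out (adjusted p = 0.047 and 0.023) or an intensity trend was used (adjusted p = 0.018). The unadjusted p was also under 0.05 for Selenos (0.37) and Derl2 (0.31), which with Derl1 and Derl3 encode ER membrane proteins that recruit p97. In all, 4 of the 25 were higher at that threshold and none lower, against 7.72% and 5.62% of all genes. Of the cofactors with a UBX domain, Ubxn1, Ubxn2a, Ubxn2b, Ubxn6, Ubxn7, Ubxn8, Ubxn10 and Ubxn11 ran from -0.12 to 0.16, with none called.

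Among regulators of NRF1, 12 of 13 were measured, with a median of -0.025. There 1 was called higher and 1 lower, against 0.918% and 0.712% of all genes. Besides Sel1l, which fell, the HRD1 gene Syvn1 rose by 0.77 ± 0.094 (limma adjusted p = 0.0099), from 9.10, 9.26 and 9.13 in wild type to 9.83, 10.13 and 9.84 in the knockout, a call lost without moderation (adjusted p = 0.16). The related factor genes Nfe2l2 and Nfe2l3 differed by -0.038 and -0.050 and the partner genes Mafg, Mafk and Maff by 0.043, -0.074 and -0.17, with none called. Of 12 ubiquitin genes and shuttles, 7 were measured and none was called, against 1.63% of all genes. Ubqln2, which encodes a shuttle between ubiquitin and the proteasome, had the smallest p (0.20 ± 0.077, limma adjusted p = 0.30), followed by Ubqln4 (0.12 ± 0.069, limma adjusted p = 0.53).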

How the data were processed

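Deposited values were log2 levels made by the authors with RMA (background correction, normalization between arrays and summary per probe set), per the submitters' processing notes. The log2 scale was read from the values, and the sources used here name no software version or genome build. The platform annotation gave 1 gene for 21789 of 35556 probe sets, several for 1621 and none for 12146. Symbols were updated through the RefSeq table of GRCm38.p6 (21698 by identifier, 3 by accession, 88 kept). A gene with several probe sets was read from the brightest by its mean of 6 arrays, without a filter on dim genes.

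The fit used limma 3.58.1 (lmFit and eBayes under R 4.3.3, two-sided, with genotype as its only term) over all 19936 genes. On simulated data it gave a slightly larger share of false calls than the threshold allows, and its intervals covered the true change slightly too seldom. Intervals are 95% intervals from the moderated SE. Motifs and figures used Python 3.11.15, pandas 2.3.3 and matplotlib 3.10.9. Genes, lists and naming rule were chosen with earlier results of these data known. The rule names Sel1l, the 6 genes outside the Psm series, called genes, the 3 smallest p values of each Psm series (5 for Psmd) and, from each related list, called genes and the 2 smallest p values; others were named after their values were seen. Alternatives were a replicate block, quantile normalization, median centring, 2 filters on dim genes, 2 other variance priors, array weights, averaged probe sets, no moderation and each array left out. The number of arrays limits the precision, and no batch was given in the sources used here.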

Additional observations from a re-analysis of the deposited data

How the results depend on the processing

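In all 16 alternative fits 0 of the 42 genes were called, with a smallest adjusted p of 0.098 for Vcp without the dimmest 50% of genes, while the count over all genes, 325, moved to 449 and 598 without the dimmest 25% and 50%, 614 with an intensity trend, 217 with the replicate block, 4 without moderation and 69 to 303 with an array left out. The median change of the 42 genes stayed within -0.0083 and 0.028, less than the SD of 0.026 between arrays from its main value, and was -0.0055 with median centring. Genes at an unadjusted p under 0.05, 4 of 42, numbered 2 with median centring (4.76%, against 12.6% of all genes), 10 with an intensity trend (23.8% against 14.2%), 7 without moderation (16.7% against 11.998%), and 0 to 5 with an array left out, where all genes gave 10.7% to 13.5% (0 without wild type array 1 or knockout array 1, 2 without knockout array 2). Genes whose groups did not overlap were 11 of 42 in the main values (26.2%, against 19.4% of all genes). They numbered 11 to 17 with an array left out, where fewer arrays have to separate, and 8 with median centring and 13 with quantile normalization. The share of all genes was not counted in these alternatives, so these numbers have no background beside them. Sel1l changed by -0.74 without moderation (adjusted p = 0.20) and by -0.87 to -0.67 with an array left out, uncalled without wild type array 1 or 2 or knockout array 1 or 3 (adjusted p up to 0.087). Ngly1 turned to -0.0021 with quantile normalization and -0.010 with median centring, and lay between -0.041 and 0.051 with single arrays left out. Nploc4 ran from -0.0030 to 0.053 and Psmd3 from -0.042 to 0.0021. The cause of these moves was not tested. The 3 immunoproteasome pairs kept their direction under quantile normalization and with each array left out, alternatives chosen after seeing the data.

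Same-numbered arrays had correlations of -0.10, 0.15 and 0.15 between their deviations from the group means, so the numbers were not taken to pair the arrays. With the replicate block, 0 of the 42 genes were called and 3 had an unadjusted p under 0.05 (7.14%, against 13.8% of all genes). The median change of the 42 genes was 0.0097 there, and Sel1l stayed called (-0.74, limma adjusted p = 0.015).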
